A study of Homo sapiens with 6 samples.

Results

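The genes described here are 10 members of the NRF2 pathway and of glutathione defence, namely NFE2L2, KEAP1, HMOX1, NQO1, GCLM, GCLC, TXNRD1, SRXN1, MGST1 and GSTA4. They are 10 of the 20030 genes in the deposited count table and were taken by gene symbol. They were chosen with the difference between the groups already in view, so that difference is given for them as a description and without a test. The study addressed the RNA-binding protein IGF2BP1 in multiple myeloma, and the RNA-seq compared cells with and without its knockdown. All 6 libraries carry the label of the established human myeloma line NCI-H929, 3 with the genotype IGF2BP1 knockdown (IGF2BP1-KD) and 3 with the IGF2BP1 negative control (IGF2BP1-NC). The study's methods describe lentiviral shRNA and puromycin selection of stable cells, and they list more than 1 shRNA target without naming the one these libraries carry. Nothing in the labels says that libraries of a group came from separate cultures, so every p-value measures the spread between these libraries, which may be technical.

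NRF2, encoded by NFE2L2, is a transcription factor that KEAP1 binds and hands to a ubiquitin ligase. When oxidants or electrophiles modify KEAP1, NRF2 escapes degradation, pairs with a small MAF protein and binds antioxidant response elements in front of genes for glutathione synthesis, thioredoxin reduction, quinone reduction and haem breakdown. Myeloma cells secrete much folded protein, which generates oxidants in the endoplasmic reticulum. Plasma cell markers were in part absent from these libraries, as given below, so this may not hold for the cells sequenced. Control of NRF2 by KEAP1 is largely a matter of protein stability that mRNA levels do not show.

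The depth was similar across libraries, with total counts from 16885449 to 18112179. A gene with 0 counts could still have had up to 3, which is 0.166 to 0.178 CPM (counts of a gene per 1e6 counts of the library), counting error only. IGF2BP1 had 47.0 ± 2.86 FPKM (fragments per kilobase of gene length, scaled to the library total, SD, n = 3) in IGF2BP1-NC and 13.1 ± 0.388 in IGF2BP1-KD, a log2 fold change of -1.85 (SE 0.065, Benjamini-Hochberg adjusted p = 4.8e-08 in the quasi-likelihood test of edgeR). Of the plasma cell markers, TNFRSF17, IRF4, CD38 and POU2AF1 had at most 3 counts in every library, 4 of the 10 markers in the list. Another 3 of the 10 exceeded 1 CPM in every library. The 10 summed to 78.2 to 160 CPM in IGF2BP1-NC and 81.0 to 86.6 CPM in IGF2BP1-KD. Of the 5 tested, 1 was called higher and 0 lower in IGF2BP1-KD, against 28.2% of all genes tested called in either direction. All 12 erythroid markers exceeded 1 CPM in every library, with a summed level of 7326 to 8624 CPM in IGF2BP1-NC and 7659 to 8503 CPM in IGF2BP1-KD. Of these 12, 2 were called higher and 5 lower in IGF2BP1-KD, that is 7 of 12, against 28.2% of all genes tested, with log2 fold changes from 2.50 for SLC4A1 to -0.31 for HBG2. Markers of the labelled cell type were thus in part absent and those of another were present. Eosinophil, basophil and mast cell markers summed to 199 to 219 CPM in IGF2BP1-NC and 457 to 790 CPM in IGF2BP1-KD. Of these 13, RNASE2, RNASE3, CPA3 and CCR3 had at most 3 counts, and only 3 exceeded 1 CPM in every library. The 6 that were tested were all called higher in IGF2BP1-KD, against 13.7% of all genes tested. The filter on low counts can keep a gene that is high in 1 group alone. Nothing is therefore read from the calls of these or of the plasma cell markers. The part of the cell type markers in the results was not tested, and in bulk RNA fewer cells of a type and less RNA per cell cannot be told apart.

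Promoter sequence was available for 9 of the 10 members, in windows from 250 bases before to 50 bases after a RefSeq start site (GRCh38.p14). The core of the antioxidant response element, TGACNNNGC searched on both strands, stood in the windows of 5 of these 9 members, GCLM, GSTA4, KEAP1, MGST1 and TXNRD1, and NFE2L2, NQO1, GCLC and SRXN1 had no match in these windows. The same letters were in 13.3% of all 35116 windows and gave 16.1% of all 27305 genes with a window at least 1 match. The matches are shown so that the element can be compared between members, and no link between a match and the direction of a difference was tested. The 9 bases of the match are in capitals, 10 flanking bases stand on each side, and each sequence runs 5′ to 3′ on the strand that holds the match.
GCLM: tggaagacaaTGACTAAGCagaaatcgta
KEAP1 match 1: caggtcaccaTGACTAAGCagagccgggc
KEAP1 match 2: acttttattgTGACACGGCgggcgcccgg
TXNRD1 match 1: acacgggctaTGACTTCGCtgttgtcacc
TXNRD1 match 2: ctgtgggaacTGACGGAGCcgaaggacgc
TXNRD1 match 3: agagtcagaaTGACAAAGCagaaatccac
MGST1: ggggacatcgTGACAAAGCaaattgtctg
GSTA4: ccgggaccgcTGACCTGGCgctttgtgcg
The GCLM sequence is at chr1:93909446-93909474 on the plus strand, with the match 34 bases upstream of the start site. The KEAP1 sequences are at chr19:10502784-10502812 on the plus strand and chr19:10502807-10502835 on the minus strand, with matches 31 and 54 bases upstream of a start site that lies inside the gene as listed below. The first TXNRD1 sequence is at chr12:104215670-104215698 on the plus strand, the second is at chr12:104215761-104215789 on the minus strand, and the third, of another start site, is at chr12:104286920-104286948 on the minus strand. The MGST1 sequence is at chr12:16347135-16347163 on the plus strand and lies downstream of the start site. The GSTA4 sequence is at chr6:52995275-52995303 on the minus strand, with the match 9 bases upstream. The GCLM match, the first KEAP1 match and TXNRD1 matches 2 and 3 lie on the strand opposite to the gene. A match is a run of letters and was not tested for binding. Sequence outside these windows was not searched, so a member without a match here may still have the element farther from its start site.

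In IGF2BP1-KD, 3 members had higher levels than in any IGF2BP1-NC library (NQO1, GCLC and SRXN1) and 3 had lower levels than in any of them (TXNRD1, MGST1 and GSTA4). NFE2L2, KEAP1 and GCLM overlapped between the groups, and HMOX1 was near the detection floor in every library. Groups did not overlap for 6 of the 9 members tested, and for 45.6% of all 11994 genes tested, a share from which nothing is read here since the members were chosen on this contrast. The median log2 fold change of the 9 members was -0.05, against -0.0048 over all genes tested. Summed over the 10 members, the level was 950.7, 801 and 828 CPM in IGF2BP1-NC libraries 1, 2 and 3 and 799, 799 and 775 CPM in IGF2BP1-KD. The sum was highest in IGF2BP1-NC library 1, which also stood apart in genes described below.

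NFE2L2 encodes NRF2 itself (chr2:177230303-177264727, minus strand, RefSeq on GRCh38.p14, as for all members). Its level was 37.8, 21.8 and 24.3 FPKM in IGF2BP1-NC and 23.0, 24.4 and 23.2 FPKM in IGF2BP1-KD. IGF2BP1-NC library 1 alone was high, and the other 5 libraries lay within 21.8 to 24.4 FPKM. The log2 fold change was -0.26 (SE 0.20) with all libraries and 0.0081 without IGF2BP1-NC library 1, so the lower mean of IGF2BP1-KD rested on that library.

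KEAP1 encodes the adaptor that marks NRF2 for degradation (chr19:10486125-10503356, minus strand). It was measured at 46.0, 50.05 and 53.6 FPKM in IGF2BP1-NC and at 49.1, 46.8 and 49.6 FPKM in IGF2BP1-KD. All 3 IGF2BP1-KD values lay inside the range of IGF2BP1-NC, and the log2 fold change was -0.05 (SE 0.071), between -0.12 and 0.01 with any 1 library left out. The ratio of NFE2L2 to KEAP1 was 0.823 in IGF2BP1-NC library 1 and 0.436 and 0.453 in the other IGF2BP1-NC libraries, against 0.469, 0.521 and 0.468 in IGF2BP1-KD.

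NQO1 encodes a quinone reductase that is a standard readout of NRF2 activity (chr16:69709401-69726560, minus strand). Its level was 28.5, 26.1 and 26.6 FPKM in IGF2BP1-NC and 40.5, 38.2 and 34.6 FPKM in IGF2BP1-KD. The groups were apart, with means of 27.0 ± 1.28 and 37.8 ± 2.95 FPKM (SD, n = 3), a difference of 39.6%. The log2 fold change was 0.47 (SE 0.074) and stayed between 0.42 and 0.53 with any 1 library left out.

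HMOX1 encodes haem oxygenase, which opens the haem ring and is strongly induced by NRF2 when BACH1 leaves its enhancers (chr22:35381096-35394207). It had 0, 2 and 1 counts in IGF2BP1-NC and 3, 2 and 4 counts in IGF2BP1-KD, at or near the floor of 3 counts, so no fold change is given. A difference in HMOX1 was not detectable at this depth. It was the only member that did not pass the filter on low counts.

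GCLM and GCLC encode the modifier and the catalytic subunit of glutamate-cysteine ligase, the rate-limiting enzyme of glutathione synthesis. GCLM (chr1:93885199-93909430, minus strand) was at 13.6, 11.7 and 11.004 FPKM in IGF2BP1-NC and at 11.3, 11.5 and 12.6 FPKM in IGF2BP1-KD, with overlapping groups and a log2 fold change of -0.04 (SE 0.081). GCLC (chr6:53497341-53545101, minus strand) was at 7.37, 7.41 and 9.41 FPKM in IGF2BP1-NC and at 11.4, 12.5 and 10.8 FPKM in IGF2BP1-KD. For GCLC every IGF2BP1-KD library was above every IGF2BP1-NC library, with a log2 fold change of 0.51 (SE 0.11) and a range of 0.44 to 0.64 with any 1 library left out. The subunits of the same enzyme thus had unlike values, and the ratio of GCLC to GCLM was 0.542, 0.633 and 0.855 in IGF2BP1-NC and 1.01, 1.08 and 0.855 in IGF2BP1-KD. The means of this ratio were 0.677 ± 0.161 and 0.982 ± 0.116 (SD, n = 3), and the groups met at IGF2BP1-NC library 3 and IGF2BP1-KD library 3.

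**Figure D1:**
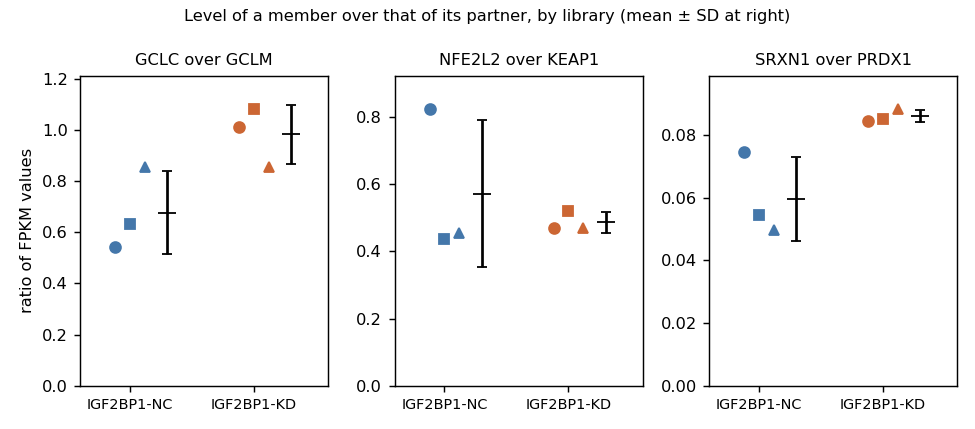
Ratio of the FPKM of a member to that of its partner in each library, with the mean and SD of each group at the right of its points. SRXN1 over PRDX1 was 0.0496 to 0.0747 in IGF2BP1-NC and 0.0845 to 0.0883 in IGF2BP1-KD, and NFE2L2 over KEAP1 was high in IGF2BP1-NC library 1 alone.

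TXNRD1 encodes cytosolic thioredoxin reductase, which returns oxidized thioredoxin to its working form (chr12:104215779-104350307, plus strand). It was at 87.1, 65.5 and 67.9 FPKM in IGF2BP1-NC and at 55.9, 56.9 and 52.7 FPKM in IGF2BP1-KD. Every IGF2BP1-KD library was below every IGF2BP1-NC library, and IGF2BP1-NC library 1 was again the highest. The log2 fold change was -0.42 (SE 0.094) with all libraries and -0.30 without IGF2BP1-NC library 1. TXN, the substrate of the reductase, is described with the thioredoxins, and the ratio of TXNRD1 to TXN overlapped between the groups, with 0.537, 0.344 and 0.374 in IGF2BP1-NC and 0.425, 0.404 and 0.388 in IGF2BP1-KD.

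SRXN1 encodes sulfiredoxin, which repairs over-oxidized peroxiredoxins (chr20:646615-653200, minus strand). Its level was 26.5, 22.5 and 20.8 FPKM in IGF2BP1-NC and 27.6, 28.5 and 29.5 FPKM in IGF2BP1-KD. IGF2BP1-NC library 1 came close to the lowest IGF2BP1-KD library, and the log2 fold change of 0.28 (SE 0.083) became 0.38 without it. The ratio of SRXN1 to PRDX1, one of its peroxiredoxin substrates, was 0.0596 ± 0.0133 in IGF2BP1-NC and 0.0860 ± 0.00199 in IGF2BP1-KD (SD, n = 3). PRDX1 itself fell from 355, 414 and 420 FPKM to 327, 335 and 334 FPKM (log2 fold change -0.27, adjusted p = 0.0215 in edgeR), so the denominator of this ratio moved as well.

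MGST1 encodes a membrane-bound glutathione transferase and peroxidase of the endoplasmic reticulum and the outer mitochondrial membrane (chr12:16347115-16593331, plus strand). It had 6.01, 7.25 and 5.76 FPKM in IGF2BP1-NC, from 336, 408 and 337 counts, and 2.87, 2.57 and 2.38 FPKM in IGF2BP1-KD, from 166, 140 and 134 counts. The IGF2BP1-KD mean was 58.9% below that of IGF2BP1-NC, and the fitted log2 fold change of -1.29 (SE 0.13) lay between -1.37 and -1.18 with any 1 library left out.

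GSTA4 encodes a cytosolic glutathione transferase that handles 4-hydroxynonenal, a product of lipid peroxidation (chr6:52977953-52995284, minus strand). It had only 25, 18 and 11 counts in IGF2BP1-NC and 5, 6 and 8 counts in IGF2BP1-KD, equal to 0.975, 0.697 and 0.410 FPKM against 0.189, 0.240 and 0.310 FPKM. The groups were apart by a few counts, and the log2 fold change of -1.48 had a standard error of 0.44. It was -1.17 without IGF2BP1-NC library 1. MGST1 and GSTA4 had the largest differences of the 9 members. The filter on low counts can keep a gene that is high in 1 group alone, and GSTA4 had few counts in IGF2BP1-KD. Nothing is therefore read from the place of GSTA4 among the members.

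**Figure D2:**
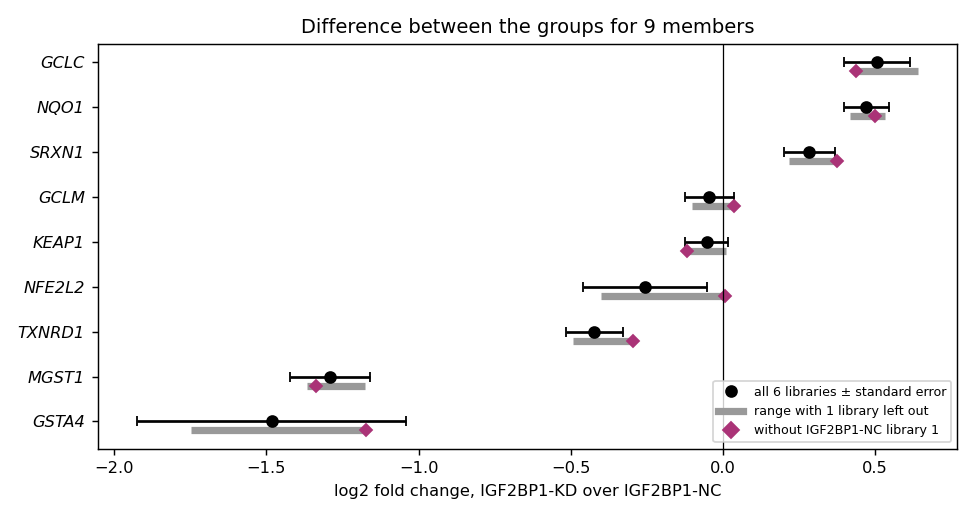
Log2 fold change of IGF2BP1-KD over IGF2BP1-NC for 9 members, with the standard error of the fit, the range with any 1 library left out (grey) and the value without IGF2BP1-NC library 1 (diamond). NFE2L2 moved from -0.26 to 0.0081 without that library, whereas MGST1 lay between -1.37 and -1.18 in every such fit.

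Levels between genes were compared per length, in FPKM. In IGF2BP1-NC the order of the means ran TXNRD1, KEAP1, NFE2L2, NQO1, SRXN1, GCLM, GCLC, MGST1, GSTA4 and HMOX1, from 73.5 ± 11.9 FPKM for TXNRD1 (SD, n = 3). The neighbours NFE2L2 and NQO1, and NQO1 and SRXN1, overlapped in their values, and all other neighbours were apart. In IGF2BP1-KD the order was TXNRD1, KEAP1, NQO1, SRXN1, NFE2L2, GCLM, GCLC, MGST1, GSTA4 and HMOX1, from 55.2 ± 2.17 FPKM for TXNRD1. There NFE2L2 stood below NQO1 and SRXN1 without overlap, and GCLM and GCLC overlapped. The rank of NFE2L2 in IGF2BP1-NC rested on library 1, since over libraries 2 and 3 its mean was 23.0 FPKM, below 26.3 FPKM for NQO1. Of the 10 members, 8 exceeded 1 CPM in every library.

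The KEGG terms in the deposited table were shared unevenly among the members. Glutathione metabolism was carried by 4 of them, GCLM, GCLC, MGST1 and GSTA4, of 53 genes with that term in the table. Ferroptosis was carried by 3 of 40 genes, Fluid shear stress and atherosclerosis by 6 of 136, and Hepatocellular carcinoma by 7 of 165.

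The other genes of the pathway were described from 8 lists that leave the members out. Each gene counted once, the lists held 117 genes, of which 93 were tested and 32 were called at an adjusted p under 0.05, or 34.4%, against 28.2% of all genes tested. The lists were chosen with earlier results of these data known, so nothing is read from the difference between these shares. Of the 93 tested, 13 were called higher and 19 lower in IGF2BP1-KD. Of all genes tested, 13.7% were called higher and 14.5% lower. The median log2 fold change of the 93 was 0.02. Of the 32, only SQSTM1, ANPEP and SOD3 were called with at least a 2-fold change, all higher, whereas such calls made up 3.06% higher and 1.67% lower of all genes tested. In every list some genes rose and others fell.

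Among 14 partners and regulators of NRF2, all tested, 1 was called higher and 3 lower (median -0.11). That is 28.6%, against 28.2% of all genes tested. SQSTM1, which encodes the autophagy receptor p62 that draws KEAP1 away from NRF2 and is itself an NRF2 target, rose from 82.4, 74.2 and 79.7 FPKM to 137, 138 and 208 FPKM. The IGF2BP1-KD values were well above the others in all 3 libraries, with a log2 fold change of 1.02 (SE 0.17, adjusted p = 0.00853 in edgeR's quasi-likelihood test, 0.0568 without IGF2BP1-NC library 1). The size of the SQSTM1 rise depended in part on IGF2BP1-KD library 3, the highest, and without it the log2 fold change was 0.79. NFE2, the haematopoietic relative of NRF2 that also pairs with small MAF proteins, fell by 0.30 on the log2 scale (SE 0.061, adjusted p = 0.00434 in edgeR), from 124, 135 and 127 FPKM to 106, 103 and 107 FPKM. Its FPKM in every library exceeded that of NFE2L2. MAFK, a small MAF partner, fell from 7.18, 8.30 and 7.67 FPKM to 5.88, 5.94 and 6.42 FPKM (log2 fold change -0.36, adjusted p = 0.0151 in edgeR, 0.0690 without IGF2BP1-NC library 2, 0.0633 without IGF2BP1-KD library 1 and 0.0619 without IGF2BP1-KD library 2).

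Of 26 further NRF2 target genes, 22 were tested, with 4 called higher and 4 lower (median 0.04), or 36.4% against 28.2% of all genes tested. The largest rise was in EPHX1, microsomal epoxide hydrolase, from 8.61, 7.83 and 7.997 FPKM to 13.4, 10.8 and 13.7 FPKM (log2 fold change 0.62, SE 0.11, adjusted p = 0.00177 in edgeR's test). FTH1, the ferritin heavy chain that stores iron, rose from 1946, 2077 and 1904 FPKM to 2796, 2636 and 2813 FPKM (log2 fold change 0.47, SE 0.062, adjusted p = 0.000422 in edgeR's test), though reads of its processed pseudogenes may be counted with it. ME1, the cytosolic malic enzyme that makes NADPH, fell from 5.05, 5.48 and 4.69 FPKM to 3.24, 3.60 and 2.99 FPKM (log2 fold change -0.64, SE 0.12, adjusted p = 0.00254 in edgeR's test). NQO2, the paralogue of NQO1, fell from 44.5, 38.7 and 34.0 FPKM to 29.7, 28.3 and 27.0 FPKM (log2 fold change -0.47, SE 0.090, adjusted p = 0.00323 in edgeR's test). NQO1 and NQO2 thus lay on opposite sides of 0.

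In glutathione synthesis and turnover, 13 of 14 genes were tested, with 2 called higher and 2 lower (median 0.04). These calls were 30.8% of the genes tested in the list, against 28.2% of all genes tested. Both genes called higher encode cell-surface enzymes that break extracellular glutathione down. GGT1, gamma-glutamyltransferase, rose from 5.26, 4.01 and 3.17 FPKM to 6.46, 7.12 and 9.18 FPKM (log2 fold change 0.86, SE 0.19, adjusted p = 0.00844 in edgeR's test), with close paralogues that could share its reads. ANPEP, an aminopeptidase that can cleave the cysteinyl-glycine left by that step, rose from 1.46, 0.966 and 0.959 FPKM to 2.47, 2.07 and 2.54 FPKM (log2 fold change 1.06, SE 0.19, adjusted p = 0.00244 in edgeR's test). GGCT, which cleaves gamma-glutamyl amino acids inside the cell, fell by 0.23 on the log2 scale (adjusted p = 0.0193 in edgeR, 0.0704 without IGF2BP1-NC library 2, 0.0825 without IGF2BP1-KD library 1 and 0.0687 without IGF2BP1-KD library 2). GSR, glutathione reductase, was at 58.3, 56.7 and 54.5 FPKM in IGF2BP1-NC and at 51.4, 51.5 and 49.8 FPKM in IGF2BP1-KD. Its adjusted p of 0.0497 in edgeR lay at the threshold and exceeded it in each of the other 8 settings and with any 1 library left out, up to 0.147.

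Glutathione peroxidases and glutaredoxins had 7 of 10 genes tested, with 1 called higher and 1 lower (median -0.18), 28.6% against 28.2% of all genes tested. GLRX, the cytosolic glutaredoxin that removes glutathione from protein thiols, rose from 1.67, 2.04 and 2.30 FPKM to 3.14, 3.57 and 4.29 FPKM (log2 fold change 0.86, SE 0.20, adjusted p = 0.00987 in edgeR). GLRX5, the mitochondrial glutaredoxin of iron-sulfur cluster assembly, fell by 0.22 on the log2 scale (adjusted p = 0.0320 in edgeR), a call lost when libraries were left out singly, with 0.101 and 0.0838 without IGF2BP1-NC libraries 2 and 3, and 0.0935 and 0.116 without IGF2BP1-KD libraries 2 and 3.

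Of 21 other glutathione transferases, 10 were tested, with 2 called higher and 1 lower (median 0.06), and GSTT1 and GSTT2 were not analysed here. GSTP1, the pi-class transferase, had the highest FPKM of the list, and it fell from 725, 860 and 775 FPKM to 658, 617 and 614 FPKM (log2 fold change -0.33, SE 0.075, adjusted p = 0.00763 in edgeR). MGST1, in comparison, had 6.34 ± 0.797 FPKM in IGF2BP1-NC (SD, n = 3). GSTO2, an omega-class transferase, rose from 0.243, 0.222 and 0.340 FPKM to 0.454, 0.453 and 0.556 FPKM (log2 fold change 0.85, SE 0.20, adjusted p = 0.0101 in edgeR). GSTM4 rose from 18.4, 18.5 and 17.4 FPKM to 22.3, 20.6 and 24.8 FPKM (log2 fold change 0.31, SE 0.080, adjusted p = 0.0160 in edgeR, 0.0629 without IGF2BP1-KD library 3), and reads of near-identical mu-class genes could be split among them.

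Thioredoxins and peroxiredoxins were all tested, with 2 of 14 called higher and 4 lower (median 0.06), or 42.9% against 28.2% of all genes tested. PRDX3, the mitochondrial peroxiredoxin, fell from 105, 109 and 109 FPKM to 60.3, 61.1 and 60.1 FPKM, with little spread inside either group (log2 fold change -0.84, SE 0.058, adjusted p = 8.4e-06 in edgeR's test). TXN, cytosolic thioredoxin, fell from 162, 190 and 182 FPKM to 131, 141 and 136 FPKM (log2 fold change -0.40, SE 0.073, adjusted p = 0.00266 in edgeR's test). PRDX5 rose from 188, 179 and 165 FPKM to 220, 235 and 262 FPKM (log2 fold change 0.42, SE 0.073, adjusted p = 0.00189 in edgeR's test). TXNRD2, the mitochondrial reductase and a paralogue of TXNRD1, rose from 13.5, 13.4 and 13.7 FPKM to 16.7, 16.7 and 15.6 FPKM (log2 fold change 0.26, adjusted p = 0.0116 in edgeR's test, 0.0563 without IGF2BP1-KD library 2). The cytosolic and mitochondrial reductases thus lay on opposite sides of 0.

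All 4 genes of the list of superoxide dismutases and catalase were tested, with 1 called higher and 1 lower (median -0.02). SOD3, the extracellular superoxide dismutase, rose from 19, 13 and 33 counts to 153, 90 and 59 counts (log2 fold change 2.22, SE 0.41, adjusted p = 0.00441 in edgeR), with a wide spread within IGF2BP1-KD. CAT, peroxisomal catalase, fell from 45.9, 48.7 and 50.3 FPKM to 41.3, 39.4 and 28.7 FPKM (log2 fold change -0.42, adjusted p = 0.0423 in edgeR). That call was lost without any 1 of IGF2BP1-NC libraries 1, 2 and 3 (adjusted p = 0.0760, 0.116 and 0.12002 in edgeR) and without IGF2BP1-KD library 2 (0.0591), and also without a filter on low counts (0.0702), with a replicate block (0.0723) and on FPKM without a filter (0.0927, limma). Without IGF2BP1-KD library 3, the lowest, the log2 fold change was -0.27.

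Among the 49 further genes with the KEGG term Glutathione metabolism, 33 were tested, with 4 called higher and 7 lower (median 0.04). That is 33.3%, against 28.2% of all genes tested. The 4 were ANPEP, GGT1, GSTO2 and GSTM4. Among the genes called lower, GSTP1 and RRM1 had the largest falls, while CHAC1, which was not called with all libraries, had a lower log2 fold change and is described with IGF2BP1-NC library 1. RRM1, the large subunit of ribonucleotide reductase, fell from 69.0, 69.9 and 69.9 FPKM to 57.8, 59.0 and 54.9 FPKM (log2 fold change -0.29, SE 0.058, adjusted p = 0.00381 in edgeR). RRM1 makes deoxynucleotides and uses electrons from thioredoxin or glutaredoxin.

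In the promoter windows of these lists, TGACNNNGC had a match in 23 of 91 genes. The form TGACTCAGC, which was in 0.689% of all 27305 genes, had a match in 5 of the 91 and in 0 of the 9 members with a window. The sequences of all 5 are shown with the match in capitals.
GSTP1: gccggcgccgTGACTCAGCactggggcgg
ME1: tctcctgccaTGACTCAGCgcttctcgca
AIFM2: gggcggggcgTGACTCAGCactcgtgctg
PIR: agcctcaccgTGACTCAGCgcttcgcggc
SLC3A2: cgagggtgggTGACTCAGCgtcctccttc
The GSTP1 sequence is at chr11:67583736-67583764 on the plus strand and that of ME1 at chr6:83431170-83431198 on the minus strand. The AIFM2 sequence is at chr10:70132829-70132857, and that of PIR at chrX:15493289-15493317, both on the plus strand and opposite to the gene. The SLC3A2 sequence is at chr11:62881652-62881680 on the plus strand. Of the 5 genes, GSTP1 and ME1 fell, and 3 were not called with all libraries, with log2 fold changes of 0.14 for AIFM2, -0.12 for PIR and 0.29 for SLC3A2. SLC3A2 was called higher without IGF2BP1-NC library 1 (0.47, adjusted p = 0.000332 in edgeR).

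IGF2BP1-NC library 1 stood apart in a set of genes of this pathway, which were picked out after their values had been seen. Its level was at least 2-fold above the mean of IGF2BP1-NC libraries 2 and 3 in 126 of the 11994 genes tested (1.05%) and in 6 of the 93 genes of the lists (6.45%), namely SLC7A11, CHAC1, CTH, SESN2, TXNIP and OSGIN1. None of the 9 members tested reached 2-fold, and NFE2L2 came closest with a log2 difference of 0.68. SLC7A11, the cystine transporter that feeds glutathione synthesis, was at 22.1, 4.51 and 5.84 FPKM in IGF2BP1-NC and at 5.10, 5.54 and 4.58 FPKM in IGF2BP1-KD. Its log2 fold change was -1.09 with all libraries and -0.05 without IGF2BP1-NC library 1.

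CHAC1, which degrades glutathione inside the cell and is a target of ATF4, had 847, 43 and 71 counts in IGF2BP1-NC and 31, 34 and 29 counts in IGF2BP1-KD. CTH, which makes cysteine from cystathionine, had 1521, 474 and 496 counts in IGF2BP1-NC, and its log2 fold change moved from -0.95 to -0.17 without library 1. SESN2, a stress-induced sestrin, had 5089, 1137 and 1217 counts in IGF2BP1-NC. In SLC7A11, CHAC1, CTH and SESN2 library 1 alone was high. Without it, CHAC1 (log2 fold change -0.85, adjusted p = 0.0367 in edgeR) and SESN2 (-0.34, adjusted p = 0.00205 in edgeR) were called lower in IGF2BP1-KD, and TXNIP, the thioredoxin-binding protein, was called higher (0.98, adjusted p = 0.0346 in edgeR).

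Without IGF2BP1-NC library 1, 38 genes of the lists were called, of which 28 were among the 32 called with all libraries, each with the same sign. The share of list genes called was then 40.9%, and that of all 12171 genes tested in the same fit was 32.8%, so calls also became more frequent over the whole table. SQSTM1, CAT, GSR and TXNDC12 were no longer called. The 10 genes gained were AKR1C2, BACH1, OSGIN1, SLC3A2 and TXNIP, which were higher in IGF2BP1-KD, and CHAC1, GLRX3, IDH1, MGST3 and SESN2, which were lower. BACH1 is the repressor that competes with NRF2 at antioxidant response elements, and SLC3A2 is the heavy chain that carries SLC7A11 to the membrane. The position of library 1 in these genes was measured, and its part in the results of other genes was not tested beyond the values given without it.

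**Figure D3:**
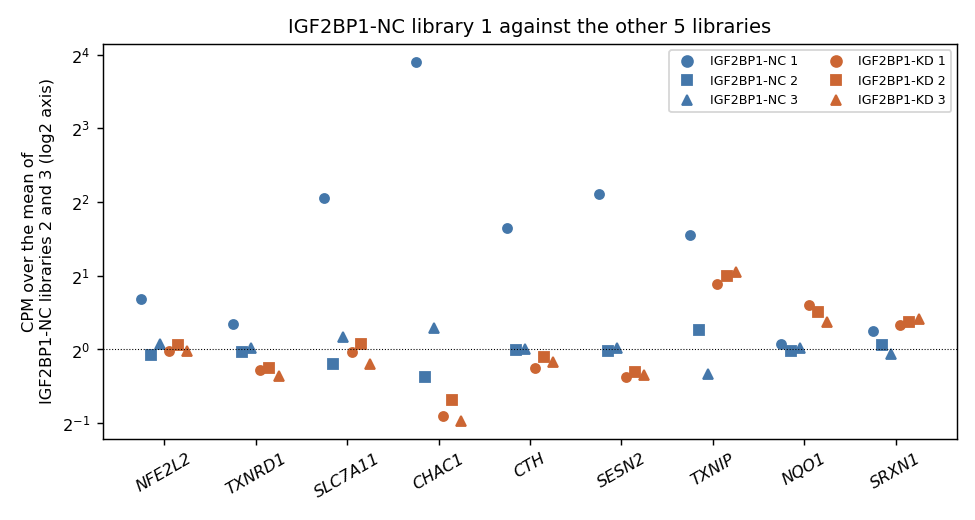
CPM of each library over the mean of IGF2BP1-NC libraries 2 and 3 (log2 axis) for 4 members and 5 genes of the pathway lists chosen after their values were seen. IGF2BP1-NC library 1 (blue circle) is at least 2-fold above that mean in SLC7A11, CHAC1, CTH, SESN2 and TXNIP, and NQO1 is higher in the 3 IGF2BP1-KD libraries than in any IGF2BP1-NC library.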

How the data were processed

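RNA-seq of 6 libraries was grouped by the labels into IGF2BP1-KD (n = 3) and IGF2BP1-NC (n = 3). The submitters' processing notes name Trimmomatic, HISAT2, GRCh38 and HTSeq, and the authors deposited raw counts per gene. FPKM values were deposited by the authors and are described as made with Cufflinks, and for the 9309 genes that reached 100 counts in each library, the gene length implied by count, FPKM and library total was the same in all 6 libraries within 2.34e-07%. Versions, strand setting and annotation release are not given in the sources used here, so it is unknown how reads shared by overlapping genes or close copies were assigned.

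Counts were fitted in edgeR 4.0.16 (R 4.3.3, TMM factors, filterByExpr, robust glmQLFit, glmQLFTest, two-sided), and genes with a Benjamini-Hochberg adjusted p under 0.05 over 11994 tested genes were called. The members and the gene lists were chosen with earlier results of these data known. Named genes are the members, IGF2BP1, up to 2 called genes with the largest rise and up to 2 with the largest fall in each list, and the markers the cell type check turns on. Library pairs differed in at least 15036 genes, so none was a copy of another. Floors cover counting error only, whereas standard errors come from the edgeR fit and SDs are between libraries. The alternatives were DESeq2 1.42.0, library-size scaling, no filter, limma-voom, limma 3.58.1 on log2(FPKM + 1) with a pseudocount of 0.1 or no filter as variants, a replicate block and each library left out. In simulated data with 200 changed genes, edgeR called 199 of them and 7 unchanged genes. The simulation gave every gene the same spread between libraries, used only changes of at least 2-fold and had no outlying library. It therefore does not cover smaller changes or a library such as IGF2BP1-NC library 1. Promoter windows and coordinates are from RefSeq (GRCh38.p14). Figures were drawn with matplotlib 3.10.9.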

Additional observations from a re-analysis of the deposited data

How the results depend on the processing

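Of 182 fits of the 23 named genes of the lists in other settings, 170 kept the direction and the call and 12 kept the direction only, and 15 of the 23 remained called with any 1 library left out. None of the 32 called genes of the lists changed direction in the 14 other fits, whereas the members NFE2L2, KEAP1 and GCLM, near 0 and not tested here, changed sign in at least 1 fit. With the replicate number as a block, 1 gene was called among glutathione peroxidases and glutaredoxins, 1 among superoxide dismutases and catalase and 7 among KEGG glutathione metabolism genes, against 2, 2 and 11 without it. Same-numbered libraries had correlations of deviations of -0.052, 0.036 and -0.106, and those of differently numbered libraries lay between -0.067 and 0.095. With 3 libraries in each group, such values cannot decide whether the numbers pair the libraries. Without a filter on low counts, and on FPKM without one, 1 superoxide dismutase or catalase gene was called, and limma on FPKM called 7 KEGG glutathione metabolism genes with either pseudocount or without the filter. With any 1 library left out, the whole table had 1144 to 1929 genes higher and 1146 to 2062 lower, all pathway lists together 19 to 38, NRF2 partners 2 to 5, further NRF2 targets 6 to 10, glutathione synthesis and turnover 2 to 5, peroxidases and glutaredoxins 1 to 3, other transferases 2 to 4, thioredoxins and peroxiredoxins 3 to 8, dismutases and catalase 1 to 2, and KEGG glutathione metabolism 6 to 12. The count over all lists, an alternative chosen after seeing the data, was lowest without IGF2BP1-KD library 2 and highest without IGF2BP1-NC library 1. Among the members, MGST1 had -1.02 on the log2(FPKM + 1) scale and GSTA4 -0.43 there without a filter. IGF2BP1 kept its call, with a log2 fold change of -1.90 to -1.77. GSTA4 and HMOX1 are limited by depth. The cause was not tested for any of these moves.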
